A study of Mus musculus with 4 samples.

Results

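NRF2, the transcription factor encoded by Nfe2l2, its inhibitor Keap1 and 8 antioxidant and stress enzyme genes (Nqo1, Hmox1, Gclc, Gclm, Sod1, Sod2, Cat and Gpx1) were followed across denervated and sham-operated tibialis anterior (TA) muscle. The 10 genes were chosen by symbol, and all 10 were among the 13825 genes of the count table. Not all of the encoded proteins are cytosolic, since Sod2 encodes the superoxide dismutase of the mitochondrial matrix and Cat encodes the catalase of peroxisomes.

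The libraries came from adult male mice, either wild-type (WT, C57BL/6J per the paper's methods) or lacking Fgf21 in the whole body (Fgf21KO, with a strain background that is not given in the sources used here). Sham-operated and denervated muscle of WT mice are called WS and WD, and those of Fgf21KO mice KS and KD, all collected 14 days after the operation. Denervation was by removal of a piece of the sciatic nerve on the left side. The labels describe the right leg as left innervated, whereas the paper's methods describe the same operation there without transection. The RNA of 4 muscles was pooled per group, so each group was 1 library and no difference between groups had a replicate check. The deleted gene itself, Fgf21, was not analysed here, and no check of the genotype labels against it was made.

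NRF2 is a basic leucine zipper factor that KEAP1 holds in the cytosol and hands to a CUL3 ubiquitin ligase, so that it is degraded. Oxidants and electrophiles modify cysteines of KEAP1, and NRF2 then accumulates, enters the nucleus and binds antioxidant response elements together with small MAF proteins. Much of this control acts on the NRF2 protein and is not seen in mRNA counts. Its known targets make glutathione, reduce quinones, break down heme and supply NADPH, and superoxide dismutases, catalase and glutathione peroxidases remove the oxidants themselves.

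In both genotypes, Hmox1 and Gpx1 were more than 2-fold higher after denervation, Cat and Nfe2l2 were higher by less than 2-fold, and Sod2, Keap1 and Nqo1 were lower. When libraries were scaled by total counts only, Keap1 and Nqo1 no longer passed the test. Sod1 and Gclm, a subunit gene of glutathione synthesis, were higher by less than 1.5-fold. Gclm passed edgeR's test but not DESeq2's, and its partner Gclc passed neither. None of the 10 genes was 2-fold apart between Fgf21KO and WT in sham muscle (2.04% of all genes were) or in denervated muscle (1.55%).

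The antioxidant response element was searched in the promoter windows of the members because it is the site through which NRF2 acts, and the matches are shown here with the bases of the motif in capitals. RefSeq windows (build GRCm38.p6, from 250 bases before to 50 after the start of the gene) were at hand for 8 of the 10 genes, Hmox1 and Gclc having no entry. The core TGACNNNGC was searched on both strands and was found in the windows of Nfe2l2, Gclm and Sod1, thus in 3 of 8, while 12.4% of 32851 windows of this length held it. Each sequence is written 5′ to 3′ on the strand of its gene.
Nfe2l2: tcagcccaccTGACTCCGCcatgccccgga
Gclm: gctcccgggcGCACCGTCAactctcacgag
Sod1: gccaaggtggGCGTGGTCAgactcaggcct
The Nfe2l2 stretch lies at chr2:75704884-75704913 on the minus strand, with the motif 240 bases upstream of the start and on the strand of the gene. The Gclm stretch lies at chr3:122245413-122245442 on the plus strand, with the motif 134 bases upstream, read on the opposite strand. The Sod1 stretch lies at chr16:90220696-90220725 on the plus strand, with the motif 56 bases upstream, also read on the opposite strand. The AP-1 site TGANTCA, whose letters can overlap an antioxidant response element, was in 0 of 8 windows (7.81% of all windows), and the FoxO site TGTTTAC was in 0 of 8 (3.65%). The E-box CAGCTG, the kind of site bound by myogenic factors, was in 1 of 8 windows (16.3% of all), that of Keap1. It is shown because Keap1 was the only inhibitor among the 10 genes.
Keap1: ggtgcaggttCAGCTGgaggcgtaccggac
This stretch lies at chr9:21239367-21239396 on the minus strand, with the motif 54 bases upstream of the start. A match of letters is a description of the window and does not show binding. Sites outside the windows were not searched, so a window without a match, such as that of Nqo1, does not show that the gene has no site. Hmox1 and Gpx1, which differed most between denervated and sham muscle, were respectively without an entry and without a match to any of the 4 motifs.

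Counts were scaled to CPM by the total of each library multiplied by its TMM factor, so the scaled totals are not equal. Any 2 libraries were compared by the difference of their log2 CPM at a prior count of 2, called the log2 ratio. A gene was called 2-fold apart at an absolute log2 ratio of at least 1. The bracketed 95% intervals cover counting error and leave out the spread between mice. In addition, edgeR's quasi-likelihood test of denervation was fitted over the 4 libraries with genotype as the other term, so that the libraries of the 2 genotypes stood in for replicates. Its p-values were adjusted by Benjamini-Hochberg over the 13084 genes averaging at least 10 counts, which included all 10 members, and "rose" and "fell" refer to an adjusted p below 0.05 in it. Since 1 residual degree of freedom was left, which is the interaction, no test of whether the genotypes responded differently could be made. SEs and p-values taken from these 4 pooled libraries, however small, likewise do not measure the spread between mice. Total counts ran from 25249879 in WS to 34141303 in KS, and TMM factors from 0.870 to 1.12. The 13 mitochondrially encoded genes held 27.0% of the counts in WS and 19.4% in WD, against 30.4% in KS and 20.6% in KD. With total counts in place of TMM factors, the median of all genes shifted to 0.29 between WD and WS, and 0.36 between KD and KS, so all differences are relative to the other genes. The shares of all genes given below were taken under TMM scaling, and none with total counts only.

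**Figure D1:**
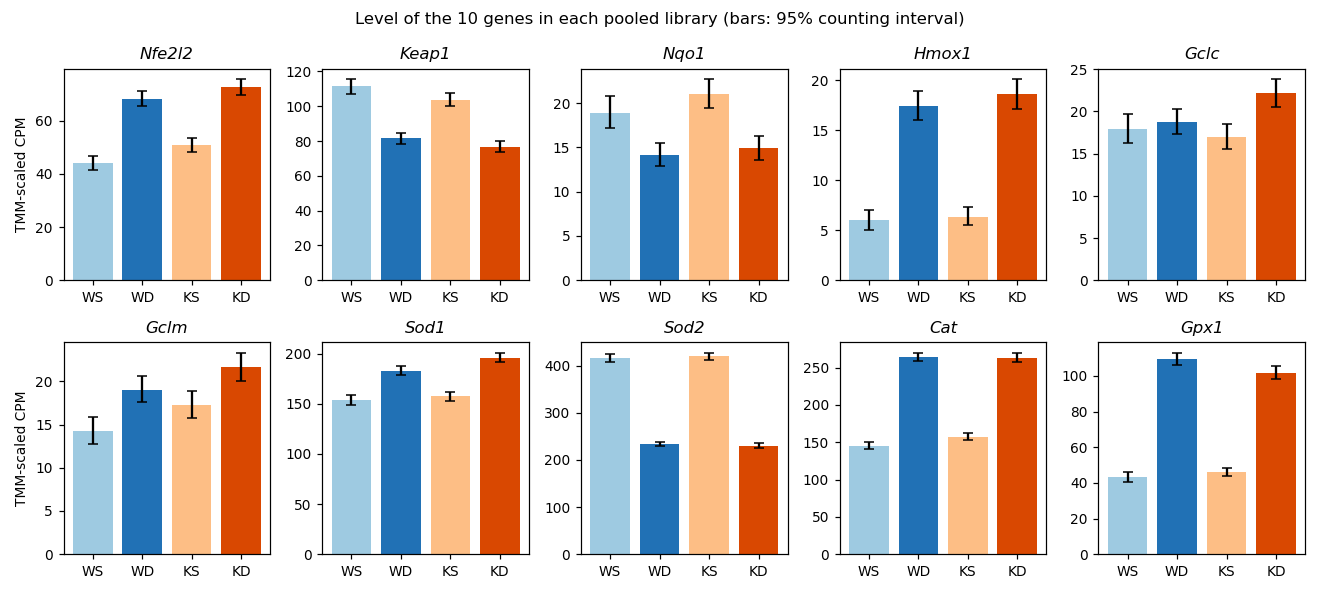
TMM-scaled CPM (y axis, from 0, 1 scale per gene) of the 10 genes in the 4 pooled libraries (x axis), with 95% counting intervals as error bars. Hmox1, Gpx1, Cat and Nfe2l2 were higher in both denervated libraries than in both sham libraries, and Sod2, Keap1 and Nqo1 were lower.

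In WD vs WS, 2 of the 10 genes were at least 2-fold higher (Hmox1 and Gpx1), against 7.18% of all genes tested, and 0 were at least 2-fold lower, against 7.61%. In KD vs KS the same 2 genes were at least 2-fold higher, against 7.51% of all genes, and 0 were lower, against 6.1%. Of all genes, 5.1% were at least 2-fold higher in both comparisons and 3.99% at least 2-fold lower in both. The median log2 ratio of the 10 genes was 0.34 between WD and WS, and 0.35 between KD and KS, and that of all genes was 0.01 in each. In the additive model 6 of the 10 genes rose, against 26.6% of all genes, and 3 fell, against 27.0%. With a log2 fold change of at least 1 required as well, 2 genes passed as higher, against 6.84% of all genes, and 0 as lower, against 6.24%.

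Nfe2l2, which encodes NRF2 itself, had 1024 counts in WS and 2232 in WD, against 1513 in KS and 2252 in KD, or 44.1, 68.4, 50.9 and 72.8 CPM. Both denervated libraries lay above both sham libraries, and KS lay between WS and WD. The log2 ratio was 0.63 [0.53, 0.74] between WD and WS, and 0.51 [0.42, 0.61] between KD and KS. Nfe2l2 rose by 0.57 on the log2 scale (SE 0.079, adjusted p = 4.89e-07).

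Keap1, the adaptor that targets NRF2 for degradation, had 2590 counts in WS and 2660 in WD, against 3083 in KS and 2377 in KD, or 111, 81.5, 104 and 76.8 CPM. Its order was the reverse of that of Nfe2l2, with both denervated libraries below both sham libraries. The log2 ratio was -0.45 [-0.53, -0.37] between WD and WS, and -0.43 [-0.51, -0.36] between KD and KS, and Keap1 fell in the model (adjusted p = 8.31e-06). This decrease depended on the scaling, since with total counts only the ratios were -0.17 and -0.08 and the gene was no longer called.

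Within a library, the ratio of Nfe2l2 to Keap1 counts does not depend on scaling. It was 0.395 in WS and 0.839 in WD, against 0.491 in KS and 0.947 in KD. The ratio was 2.12-fold [1.94, 2.33] higher in WD than in WS and 1.93-fold [1.77, 2.10] higher in KD than in KS. It was 1.24-fold [1.13, 1.36] higher in KS than in WS and 1.13-fold [1.04, 1.22] higher in KD than in WD. This pair and the 2 pairs of enzymes below were chosen after their values were seen.

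**Figure D2:**
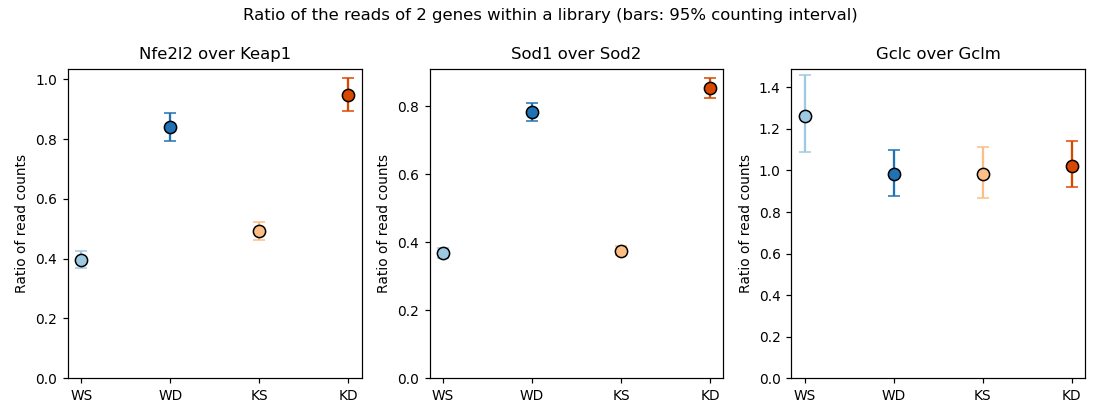
Ratio of the read counts of 2 genes within each of the 4 libraries (y axis, from 0) with 95% counting intervals. Nfe2l2 over Keap1 and Sod1 over Sod2 were about 2-fold higher in the denervated libraries (2.12-fold each in WD vs WS), while Gclc over Gclm was 1.26 in WS and 0.982 to 1.02 in the others.

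Among the enzymes that act on heme and quinones, Hmox1 and Nqo1 went in opposite directions. Hmox1 encodes heme oxygenase, which opens the heme ring to biliverdin, carbon monoxide and iron. It had 139 counts in WS and 569 in WD, against 189 in KS and 574 in KD, or 5.98, 17.4, 6.36 and 18.6 CPM. The 2 sham libraries were close to each other, as were the 2 denervated libraries. Hmox1 was 2.89-fold higher in WD than in WS and 2.90-fold higher in KD than in KS, with log2 ratios of 1.53 [1.27, 1.82] and 1.53 [1.30, 1.79]. It rose in the model by 1.54 (SE 0.135, adjusted p = 8.06e-11).

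Hmox1 is strongly expressed by macrophages, and markers of these cells differed between the same libraries. The summed level of 14 macrophage markers was 37.2 CPM in WS and 79.9 in WD, against 41.0 in KS and 79.7 in KD, a 2.15-fold higher sum in WD than in WS and a 1.95-fold higher sum in KD than in KS. Of the 13 that could be tested 9 rose, 0 fell and 4 did not pass, and none was at 3 counts or fewer in any library. Of all genes, 26.6% rose and 27.0% fell. The markers were not uniform. Lyve1 had log2 ratios of -0.24 (WD vs WS) and -1.28 (KD vs KS), from 18, 21, 61 and 25 counts in WS, WD, KS and KD. Itgam had 0.01 and 2.31, from 36, 51, 11 and 65 counts. Cd68 had the highest ratio in each comparison, 3.35 and 3.24, from 23, 350, 32 and 333 counts. The part of the macrophage markers in the Hmox1 result was not tested. In such bulk samples, fewer cells of a type and less RNA per cell cannot be told apart.

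Nqo1 encodes a quinone reductase and is among the genes most often used as a readout of NRF2. It had 439 counts in WS and 462 in WD, against 625 in KS and 461 in KD, or 18.9, 14.2, 21.0 and 14.9 CPM. Both denervated libraries were below both sham libraries, the opposite of Nfe2l2. The log2 ratio was -0.42 [-0.61, -0.23] between WD and WS, and -0.50 [-0.67, -0.32] between KD and KS, and Nqo1 fell in the model by 0.46 on the log2 scale (SE 0.114, adjusted p = 0.0012). With total counts only the ratios were -0.13 and -0.14 and the gene was not called.

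Gclc and Gclm encode the catalytic and the modifier subunit of glutamate-cysteine ligase, the first and rate-limiting step of glutathione synthesis. Gclc had 416 counts in WS and 611 in WD, against 504 in KS and 685 in KD, or 17.9, 18.7, 17.0 and 22.1 CPM. WS, WD and KS lay close together and KD was the highest. The log2 ratio was 0.06 [-0.12, 0.25] between WD and WS, and 0.38 [0.22, 0.55] between KD and KS, and Gclc was the only member that did not pass the additive test (0.23, adjusted p = 0.0952). With total counts only it was called as higher.

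Gclm had 330 counts in WS and 622 in WD, against 513 in KS and 669 in KD, or 14.2, 19.1, 17.3 and 21.6 CPM. Each denervated library was above the sham library of its genotype, and KS was nearer to WD than to WS. The log2 ratios were 0.42 [0.23, 0.62] between WD and WS, and 0.32 [0.16, 0.49] between KD and KS, and Gclm rose by edgeR's test (0.37, adjusted p = 0.00643) but did not pass DESeq2's Wald test (adjusted p = 0.108). The ratio of Gclc to Gclm counts was 1.26 in WS and 0.982 in WD, against 0.982 in KS and 1.02 in KD. It was 0.779 times [0.649, 0.935] as high in WD as in WS and 1.04 times [0.886, 1.23] as high in KD as in KS.

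The 2 superoxide dismutase genes went in opposite directions. Sod1, which encodes the copper-zinc enzyme of the cytosol, had 3572 counts in WS and 5975 in WD, against 4684 in KS and 6071 in KD, or 154, 183, 158 and 196 CPM. Sod2, which encodes the manganese enzyme of mitochondria, had 9684, 7631, 12488 and 7104 counts in the same order, or 417, 234, 420 and 230 CPM. For each gene the 2 sham libraries were nearly equal, and both denervated libraries lay above them for Sod1 and below them for Sod2.

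The log2 ratio of Sod1 was 0.25 [0.19, 0.31] between WD and WS, and 0.32 [0.26, 0.37] between KD and KS, and Sod1 rose in the model (0.28, SE 0.071, adjusted p = 0.0012). The log2 ratio of Sod2 was -0.83 [-0.88, -0.79] between WD and WS, and -0.87 [-0.91, -0.83] between KD and KS, a level lower by 43.9% and 45.4%, and Sod2 fell in the model (adjusted p = 2.5e-11). Sod2 was the lowest of the 10 genes in both denervation comparisons. The share of counts on mitochondrially encoded genes given above was also lower in WD and KD, and its part in the Sod2 result was not tested. The ratio of Sod1 to Sod2 counts was 0.369 in WS and 0.783 in WD, against 0.375 in KS and 0.855 in KD. This ratio was 2.12-fold [2.02, 2.23] higher in WD than in WS and 2.28-fold [2.17, 2.39] higher in KD than in KS.

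Both enzymes that remove hydrogen peroxide were higher after denervation. Cat had 3373 counts in WS and 8640 in WD, against 4685 in KS and 8150 in KD, or 145, 265, 158 and 263 CPM. The denervated libraries were nearly equal to each other and far above the sham libraries. The log2 ratio of Cat was 0.87 [0.81, 0.92] between WD and WS, and 0.74 [0.69, 0.79] between KD and KS, below the 2-fold threshold in each, and Cat rose in the model (0.80, SE 0.072, adjusted p = 1.21e-10). With total counts only, the ratios were 1.15 and 1.10, past 2-fold.

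Gpx1 encodes the ubiquitous selenium-dependent glutathione peroxidase. It had 1002 counts in WS and 3574 in WD, against 1366 in KS and 3149 in KD, or 43.1, 109, 46.0 and 102 CPM. The sham libraries were close together, and WD was the highest library. Gpx1 was 2.54-fold higher in WD than in WS and 2.21-fold higher in KD than in KS, with log2 ratios of 1.34 [1.24, 1.45] and 1.15 [1.05, 1.24]. It rose in the model by 1.24 (SE 0.079, adjusted p = 8.29e-14), the smallest adjusted p among the 10 genes.

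Levels of different genes were compared as CPM per kb of the longest CCDS transcript in GENCODE M21. In WS the order was Sod1 (240 CPM per kb), Sod2 (71.1), Cat (55.6), Gpx1 (40.2), Keap1 (30.8), Nfe2l2 (17.8), Nqo1 (12.2), Gclc (5.23), Hmox1 (3.81) and Gclm (2.54), and KS had the same order. In WD the order began with Sod1 (286), Gpx1 (102), Cat (101), Sod2 (39.9), Nfe2l2 (27.6) and Keap1 (22.5), and went on with Hmox1 (11.1), Nqo1 (9.11), Gclc (5.47) and Gclm (3.41). KD had this order too, but with Cat before Gpx1. Denervated muscle thus differed from sham in that Gpx1 and Cat stood above Sod2, and Hmox1 above Nqo1 and Gclc, whichever transcript was taken. Neighbours whose counting intervals overlapped were Gpx1 and Cat in WD, and Gclc and Hmox1 in KS. The places of Gclm and Keap1 depended on the transcript taken, since with the shortest CCDS transcript they stood at 14.2 and 51.5 CPM per kb in WS. Nfe2l2 stood above Keap1 in denervated muscle only with the longest transcripts, since with the shortest Keap1 was at 37.7 in WD and 35.5 in KD, above Nfe2l2 at 27.6 and 29.4.

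The study asked how loss of Fgf21, which encodes a hormone that is also made by stressed muscle, bears on denervated muscle, and Fgf21KO was therefore compared with WT within each surgery. These comparisons share their libraries with the denervation comparisons above. In KS vs WS, 0 of the 10 genes were 2-fold apart, against 2.04% of all genes, and in KD vs WD 0 of 10, against 1.55%. The largest log2 ratios were 0.28 [0.08, 0.49] for Gclm between KS and WS, and 0.24 [0.08, 0.40] for Gclc between KD and WD. Nfe2l2 was slightly higher in the Fgf21KO libraries, at 0.21 [0.09, 0.32] between KS and WS, and 0.09 [0.01, 0.18] between KD and WD, and Keap1 slightly lower, at -0.10 [-0.18, -0.03] and -0.08 [-0.16, -0.00]. Hmox1, with 0.09 in each comparison, and Nqo1, with 0.15 and 0.07, had intervals that held 0. The genotype term of the additive model called 0 of 10 genes by edgeR, with adjusted p from 0.635 (Gclm) to 0.995 and 0 genes at an unadjusted p under 0.05, and 0 by DESeq2. Of all genes tested, it called 0.673%.

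**Figure D3:**
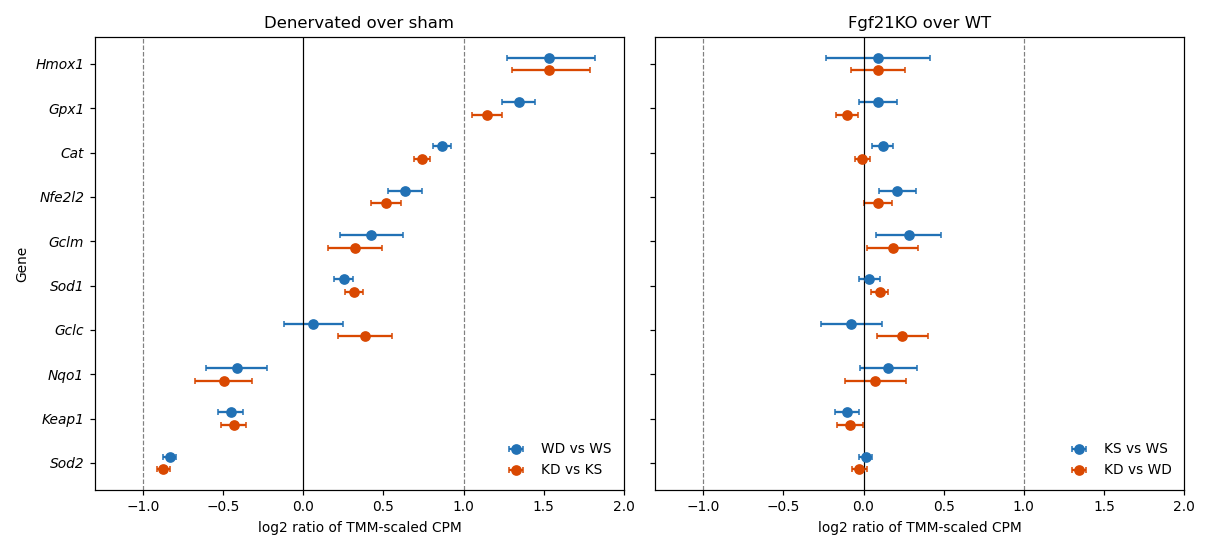
Log2 ratios of TMM-scaled CPM (x axis) of the 10 genes (y axis) for denervated over sham muscle (left) and Fgf21KO over WT (right), with 95% counting intervals and dashed lines at 2-fold. Hmox1 and Gpx1 lie past 2-fold in both denervation comparisons and Sod2 is the lowest, while all genotype ratios lie between -0.10 and 0.28.

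The denervation ratio of KD vs KS minus that of WD vs WS had a counting interval without 0 for 3 genes. This interval was taken for the members only, so no share of all genes stands beside the count. For Gclc the difference was 0.32 [0.07, 0.56], for Cat -0.13 [-0.20, -0.05] and for Gpx1 -0.20 [-0.33, -0.06]. These depended on the scaling. With total counts only, the differences of Cat (-0.05 [-0.13, 0.03]) and Gpx1 (-0.12 [-0.26, 0.01]) had intervals that held 0, that of Gclc (0.39 [0.15, 0.64]) did not, and that of Sod1 (0.14 [0.06, 0.22]) no longer did. Without replicates these differences were not tested against the spread between mice.

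More of the other regulators of the pathway fell than rose under TMM scaling, but not with total counts only. Of 18 measured regulators, 0 were 2-fold higher in either comparison and 1 was 2-fold lower in both, with medians of -0.19 between WD and WS, and -0.21 between KD and KS. In the additive model 2 rose, 9 fell and 7 did not pass, and with total counts only 6 rose and 2 fell, with medians of 0.09 and 0.14. The 2-fold lower share of 5.56% was near the 7.61% of all genes in WD vs WS and the 6.1% in KD vs KS, and 26.6% of all genes rose and 27.0% fell. The 2 that rose under TMM scaling were Dpp3 and Sqstm1, which encode proteins known to bind KEAP1 and so compete with NRF2 for it. Dpp3 had 543, 1524, 696 and 1445 counts in WS, WD, KS and KD, with log2 ratios of 0.996 and 0.993, just below the threshold. Sqstm1, which encodes the autophagy receptor p62, had 14862, 33905, 20680 and 31624 counts, with log2 ratios of 0.70 and 0.55.

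Amer1, whose product WTX is also known to bind KEAP1 but is best known in Wnt signalling, was the regulator past 2-fold, with 452, 230, 571 and 207 counts and log2 ratios of -1.46 and -1.51. Palb2, a DNA repair gene whose product binds KEAP1 too, had the next lowest ratio in WD vs WS (-0.87) but 0.10 in KD vs KS, at only 19 to 27 counts a library. Cul3, the scaffold of the ligase that degrades NRF2, was chosen after its values were seen. It had 9537, 8296, 12858 and 7295 counts and fell with log2 ratios of -0.69 and -0.88 (adjusted p = 2.6e-10). Crebbp and Park7, also chosen after their values were seen, fell too, with ratios of -0.61 and -0.27, and of -0.25 and -0.25. The regulators include small MAF genes, whose products act with NRF2, as well as genes of its degradation. The counts and medians of this list therefore give no single direction for the pathway.

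Of 39 other known NRF2 target genes, 6 were 2-fold higher and 3 were 2-fold lower in WD vs WS, which is 15.4% and 7.69% of them, and the counts were the same in KD vs KS. Of these, 5 were higher and 3 lower in both comparisons. The median log2 ratio was 0.39 between WD and WS, and 0.31 between KD and KS. In the additive model 22 rose, 10 fell and 7 did not pass, and with total counts only 27 rose and 6 fell. With total counts only, the median of all genes was itself 0.29 and 0.36, and no share of all genes was taken. Of all genes, 7.18% and 7.61% were 2-fold higher and lower in WD vs WS, and 26.6% and 27.0% rose and fell, so the share of these targets that was lower or fell was near that of all genes.

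The targets at least 2-fold higher in both genotypes were Pgd, Aox1, Txn1, Srxn1 and Ftl1. Pgd, which encodes the NADPH-forming 6-phosphogluconate dehydrogenase, had 359, 1844, 496 and 1781 counts in WS, WD, KS and KD, with log2 ratios of 1.87 and 1.78. Aox1, an aldehyde oxidase, had 635, 3049, 1147 and 3578 counts, with ratios of 1.77 and 1.58. Txn1, which encodes cytosolic thioredoxin, had 822, 3546, 1207 and 3643 counts, with ratios of 1.62 and 1.53. All 3 had both denervated libraries well above both sham libraries.

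Srxn1, which encodes the sulfiredoxin that repairs overoxidised peroxiredoxins, had 713, 2670, 1121 and 2668 counts, with log2 ratios of 1.41 and 1.19. Ftl1, the ferritin light chain that stores iron released among others by heme oxygenase, had 3329, 10804, 4080 and 9960 counts, with ratios of 1.21 and 1.23. Reads of ferritin genes can be shared with their pseudogenes, so the value of Ftl1 is uncertain. Several further partners of the members, chosen after their values were seen, rose by less than 2-fold. Gsr, which regenerates the glutathione used by Gpx1, had ratios of 0.68 and 0.66 (adjusted p = 4.15e-07), and Gss, the second enzyme of glutathione synthesis after Gclc and Gclm, had 0.74 and 0.47 (adjusted p = 0.00249). Blvra and Blvrb, whose products reduce the biliverdin formed by Hmox1, had ratios of 0.60 and 0.37, and of 0.50 and 0.64, with adjusted p of 0.00286 and 0.0147. Other targets fell by less than 2-fold, and those named here were also chosen after their values were seen. Me1 had ratios of -0.54 and -0.80, Ephx1 -0.61 and -0.84, Osgin1 -0.53 and -0.97, and Slc48a1 -0.29 and -0.41. In the whole list 22 targets rose and 10 fell.

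The targets lower in both genotypes were Mgst3, Aldh1a1 and Mgst1. Mgst3, a membrane-bound glutathione transferase, had 4480, 1853, 6073 and 1663 counts, with log2 ratios of -1.76 and -1.93. Aldh1a1, a retinaldehyde dehydrogenase, had 3479, 1871, 6689 and 2290 counts, with ratios of -1.38 and -1.60, and KS was by far its highest library. Mgst1 had 767, 490, 1216 and 541 counts, with ratios of -1.13 and -1.22. These 3 genes, like Nqo1, had CPM values in both denervated libraries below those in both sham libraries.

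Of 30 other antioxidant genes, 5 were 2-fold higher and 1 was 2-fold lower in WD vs WS, and 4 and 1 in KD vs KS, with 4 higher and 1 lower in both. The median log2 ratio was 0.12 between WD and WS, and 0.11 between KD and KS, and in the additive model 14 rose, 10 fell and 6 did not pass (18 and 3 with total counts only). The 2-fold shares were 16.7% higher and 3.33% lower in WD vs WS, against 7.18% and 7.61% of all genes, and in the additive model 26.6% of all genes rose and 27.0% fell. The metallothionein genes, which encode small cysteine-rich proteins that bind zinc and copper, had the highest ratios. Mt2 had 33 counts in WS and 1274 in WD, against 42 in KS and 1658 in KD, with log2 ratios of 4.71 and 5.18. Mt1 had 149, 1015, 198 and 1361 counts, with ratios of 2.27 and 2.71. Both ratios were above those of all 10 members.

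Sesn3, which encodes a stress-inducible sestrin, had 117, 453, 130 and 459 counts, with log2 ratios of 1.45 and 1.75. Gpx3, the secreted relative of Gpx1, had 3812, 13596, 4817 and 14249 counts, with ratios of 1.34 and 1.51, beside 1.34 and 1.15 for Gpx1. The lowest were Msrb3, a methionine sulfoxide reductase, with 5481, 3183, 6670 and 2876 counts and ratios of -1.27 and -1.27, and Selenow, a small selenoprotein abundant in muscle, with 19761, 16545, 27255 and 15215 counts and ratios of -0.75 and -0.90.

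**Figure D4:**
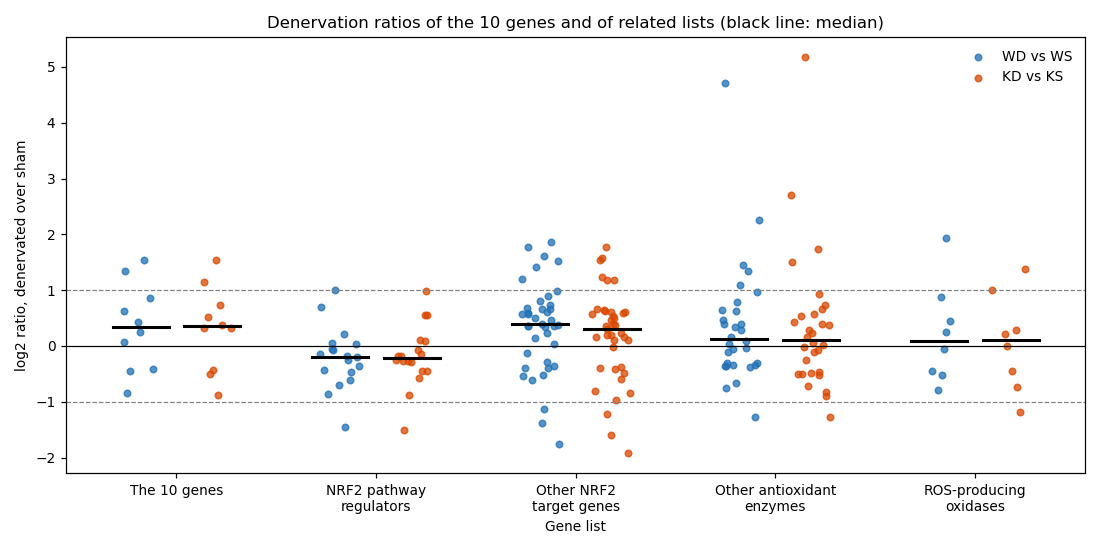
Log2 ratio of denervated over sham muscle (y axis) for each measured gene of 5 lists (x axis), with WD vs WS in blue, KD vs KS in orange, the median as a black line and dashed lines at 2-fold. The medians of the 10 genes are 0.34 and 0.35, those of the other NRF2 targets 0.39 and 0.31 and those of the regulators -0.19 and -0.21, and the highest points are those of Mt2 (4.71 and 5.18).

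Markers of the other cells of muscle also differed between sham and denervated libraries, in both genotypes. Summed levels ranged from 528 CPM in WS to 234 in KD for 7 endothelial markers, from 683 in WS to 443 in WD for 7 fibro-adipogenic and fibroblast markers, and from 53.7 in KS to 22.1 in WD for 3 Schwann cell markers. The sum of 5 erythroid markers, cells in which Cat is abundant, was 289 CPM in WS and 208 in WD, against 333 in KS and 170 in KD, and the globin genes among them are near-identical copies whose separate counts are uncertain. The 3 adipocyte markers summed to between 176 CPM in WD and 246 in WS, mostly from Fabp4 (157 and 225 CPM), the only one of them that fell. For muscle itself, 3 fast fibre markers (Myh1, Tnni2 and Mylpf) summed to between 25473 CPM in WD and 41908 in WS, and 3 slow fibre markers to between 42.8 in KS and 240 in WD. In the additive model 7 of 7 endothelial, 5 of 7 fibro-adipogenic, 2 of 3 Schwann cell, 5 of 5 erythroid, 1 of 3 adipocyte and 3 of 3 fast fibre markers fell, and 2 of 3 slow fibre markers rose. Of all genes, 27.0% fell and 26.6% rose. The part of these markers in the results for the 10 genes was not tested.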

How the data were processed

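TA muscle RNA was sequenced as stranded mRNA libraries, 1 pooled library of 4 muscles per group. The authors deposited read counts per gene, not normalized, and a table of log2 values that are scaled counts, used here as an alternative. The submitters' processing notes name FastQC and GRCm39, and the aligner and counter are not given in the sources used here. Groups followed the labels, and 0 columns of other samples were used.

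R 4.3.3 with edgeR 4.0.16 (TMM, prior count 2, mean count of at least 10, quasi-likelihood test with Benjamini-Hochberg adjustment) and DESeq2 1.42.0 were used, with Python 3.11.15 and scipy 1.17.1. At 3 counts the level was 0.0919 to 0.129 CPM. In simulated data, 200 of 13084 genes were changed 4-fold, and the test of denervation found a median of 98.5% of these. The median number of wrongly called genes was 2. Because the groups were pooled without replicates, the simulation could not be given a measured spread between mice. Its rates are therefore not error rates of the calls made here. Intervals (95%) are Clopper-Pearson for log2 ratios and for ratios of 2 genes within a library, and exact Poisson for levels. Those for the fold between 2 such within-library ratios, and for the difference between the genotypes, are normal approximations from the counts.

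The members and lists were chosen with earlier results of these data known. Named were the 10 members, the 2 highest and 2 lowest genes of each pathway list in WD vs WS, those past 2-fold in the same direction in both genotypes, and the 3 genes most like Nfe2l2. Others named were chosen after their values were seen. Listed symbols without a row were not analysed here. Alternatives were other scalings, filters, prior counts, thresholds, assumed variation of 0.1, 0.2 and 0.4 in edgeR's exact test, and DESeq2's Wald test.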

Additional observations from a re-analysis of the deposited data

How the results depend on the processing

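No paired analysis was possible because a group holds only 1 library of pooled RNA, and for the same reason no replicate could be left out. No ratio of the 10 genes reversed between denervated and sham muscle. Of 450 single ratios recomputed, 425 moved by less than their counting error and 25 by more, the latter all with total counts only, under which Sod1 (-0.04) and Sod2 (-0.07) also changed sign in KS vs WS, from values within counting error of 0. Counts past the threshold depended on it. At 1.5-fold in place of 2-fold, WD vs WS and KD vs KS gave 5 and 4 of the 10 genes (2 each at 2-fold), 6 and 3 regulators (1 each), 19 and 19 other targets (9 each) and 12 and 11 other antioxidant genes (6 and 5). With edgeR's exact test at an assumed variation of 0.4, they gave 0 and 0 of the 10 genes, 0 and 0 regulators, 0 and 0 other targets and 1 and 1 other antioxidant genes, and at 0.2 KD vs KS gave 1 of the 10 genes. Total counts only gave 2 regulators in each comparison, and a mean count of at least 50 gave 2 in KD vs KS. No share of all genes was taken under these alternatives, so the counts at 1.5-fold have none beside them. Under the main setting, all genes had median absolute log2 ratios of 0.40 (WD vs WS) and 0.39 (KD vs KS). Those of the 10 genes were 0.54 and 0.51. In the additive model, 9 of the 10 genes passed for denervation with no fold threshold and 2 with it. Among the marker lists, the medians of adipocyte genes in WD vs WS (0.07) and Schwann cell genes in KD vs KS (0.03) turned positive with total counts only. The lowest depth among the 10 genes was that of Hmox1 in WS (139 counts).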

Other observations

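Enzymes that produce reactive oxygen species were measured by few genes. Of 8 measured oxidase genes, 1 was 2-fold higher and 0 were lower in WD vs WS, and 2 were higher and 1 lower in KD vs KS, with medians of 0.10 and 0.11. Of all genes, 7.18% and 7.51% were 2-fold higher in these comparisons and 7.61% and 6.1% lower, and 1 or 2 calls among 8 genes are too few to set against these shares. Ncf1, which encodes a cytosolic subunit of the phagocyte NADPH oxidase, had 7, 44, 11 and 33 counts in WS, WD, KS and KD, with log2 ratios of 1.94 and 1.37. Cybb, its catalytic subunit, had 23, 61, 29 and 63 counts, with ratios of 0.87 and 1.01. Maob, a monoamine oxidase of mitochondria, had 518, 420, 865 and 396 counts, with ratios of -0.79 and -1.18, and Cyba had 94, 91, 118 and 90 counts, with ratios of -0.53 and -0.44. In the additive model 3 of the 8 rose, 1 fell and 4 did not pass, while 26.6% of all genes rose and 27.0% fell.

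Over the 4 libraries, the genes whose log2 CPM pattern was nearest to that of Nfe2l2, among 11316 genes averaging at least 50 counts, were Rps23-ps2, Emc3 and Pigs, at Euclidean distances of 0.012, 0.022 and 0.032. Emc3 had 1647, 3525, 2412 and 3552 counts and Pigs 377, 803, 560 and 820. Rps23-ps2 is a ribosomal pseudogene with near-identical copies, and its 50, 111, 74 and 111 counts are uncertain.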
